A study of Mus musculus with 14 samples.

Results

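The genes described here are 10 hepcidin and iron handling genes: the hepcidin genes Hamp and Hamp2, the liver iron sensors Hfe, Hjv and Tfr2, the transferrin receptor Tfrc, transferrin (Trf), the iron exporter Slc40a1 and the ferritin chains Fth1 and Ftl1. They were found by gene name or current symbol among the non-control probes of a mouse whole-genome array. All 10 were present, on 11 of 41174 probes, and all 10 were among the 32675 genes tested. They were chosen by their log2 ratios over the diets in these same arrays, so the values below describe them and carry no p-value. A pass or a lost call of a member below (limma, adjusted p under 0.05) describes a fit. It is not evidence for the member.

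Livers came from male C57BL/6 mice aged 1 year in 3 groups. In the first, 4 mice ate a high-calorie diet, AIN-93G changed so that 60% of its calories came from fat, with 0.04% resveratrol added (the resveratrol mice). In the second, 5 mice ate the high-calorie diet without resveratrol, and in the third, 5 mice ate unchanged AIN-93G, the standard diet. Resveratrol is a plant polyphenol. All mice ate ad libitum, and the sources used here do not give the feeding time. Each of the 14 mice had 1 array on which its own RNA carried the dye Cy3 and a pool of 5 standard-diet livers carried Cy5, so a level below is the log2 ratio of the animal to that pool.

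Hepcidin is a peptide hormone that hepatocytes secrete and that makes cells withdraw and degrade ferroportin, the exporter encoded by Slc40a1. More hepcidin therefore means less iron released into plasma from the gut, from macrophages and from hepatocytes. Hepatocytes read iron through transferrin receptor 2, the HFE protein and hemojuvelin, which feed the BMP-SMAD pathway, and read inflammation through IL-6 and STAT3. Ferritin stores iron inside cells, and its translation, like the stability of transferrin receptor mRNA, is set by iron regulatory proteins, so protein can change with no change in mRNA. Mice carry an additional hepcidin gene, Hamp2, next to Hamp, and whether its RNA level bears on iron was not tested here. The promoters of the pair are shown because the genes are near copies that lie side by side and yet had different levels across the diets.

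Each stretch below is the 250 bases before the gene's start, 5′ to 3′ on the minus strand, from the RefSeq promoter table of GRCm38.p6, at chr7:30944030-30944279 for Hamp and chr7:30924182-30924431 for Hamp2. Capitals mark GGCGCC, the letters of the BMP-responsive element described in hepcidin promoters, or the bases aligned to it, and then the STAT-type motif TTCNNNGAA.
Hamp: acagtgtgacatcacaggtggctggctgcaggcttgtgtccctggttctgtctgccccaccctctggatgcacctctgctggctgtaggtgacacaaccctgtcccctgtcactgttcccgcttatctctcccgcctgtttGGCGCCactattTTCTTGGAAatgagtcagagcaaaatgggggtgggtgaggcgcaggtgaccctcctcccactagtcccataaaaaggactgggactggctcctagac
Hamp2: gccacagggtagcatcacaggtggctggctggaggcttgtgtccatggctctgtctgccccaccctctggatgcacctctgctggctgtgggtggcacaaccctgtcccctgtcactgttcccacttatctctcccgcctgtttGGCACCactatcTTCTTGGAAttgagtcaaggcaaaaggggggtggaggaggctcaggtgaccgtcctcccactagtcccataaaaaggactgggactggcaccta

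In the alignment of the stretches, 227 of 247 bases were identical (91.9%), with 20 substitutions. Hamp held GGCGCC at base -109, whereas Hamp2 had GGCACC there, the substitution G4A with positions counted from 1 at the motif's 5′ end and Hamp's base given first. The STAT-type motif read TTCTTGGAA in both, at base -97 in Hamp and base -94 in Hamp2. Among the 32851 promoter windows of the same RefSeq table, each searched over its 250 bases before the start, on both strands since each motif reads the same on either, 9.59% held GGCGCC and 7.02% held TTCNNNGAA. The table held 7 of the 10 members, all but Hjv, Trf and Slc40a1. Of the remaining 5, Tfrc had GGCGCC in 1 of its 2 windows, at base -89, TTCNNNGAA was in 0 of the 5, and the E-box CACGTG, present in 6.02% of windows, was in no member's window. A match shows that the letters are there and nothing of binding.

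In the same annotation Hamp spans chr7:30942368-30944029 and Hamp2 chr7:30922372-30924181, with 18186 bases between them. Ftl1 lies on the same chromosome at chr7:45457944-45459886. The others are at chr1:45908070-45926532 (Slc40a1), chr3:96525163-96529216 (Hjv), chr5:137569822-137588081 (Tfr2), chr9:103208876-103230286 (Trf), chr13:23702034-23710854 (Hfe), chr16:32608896-32632794 (Tfrc) and chr19:9980600-9985111 (Fth1). Each member's RNA was well above background in Cy3 on 14 of 14 arrays and saturated there on 0. The array gives several of them other names: 1810073K19 for Hamp2, Rgmc for Hjv, Trfr2 for Tfr2, 2610028K12 for Tfrc, Fth for Fth1 and Ftl2 for the brighter Ftl1 probe. The probe named Ftl2 was matched to Ftl1 by its accession list, and the dimmer probe is the one the array names Ftl1. Probe sequences were not used here, so how far the Hamp and Hamp2 probes, or those of the ferritin chains and their copies, bind each other's RNA was not tested.

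Over the whole series, between 77.9% and 92.4% of non-control spots were well above background in Cy3, and the number of arrays limits the precision. The hepatocyte markers on the array were above background, as a liver label requires. Leaving out single mice moved counts over all genes. For high-calorie over standard-diet mice 3083 genes passed, or 5993 without standard-diet mouse 5 and 1379 without high-calorie mouse 5. Standard-diet mouse 5 and resveratrol mouse 3, chosen after seeing the data, are left out together below where that moved a member. The standard-diet mice averaged 2.54 times the pool for Hamp, although the labels describe the pool as standard-diet liver, and whether it held these same 5 mice is not stated. Groups are therefore compared with each other and not with the pool.

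**Figure D1:**
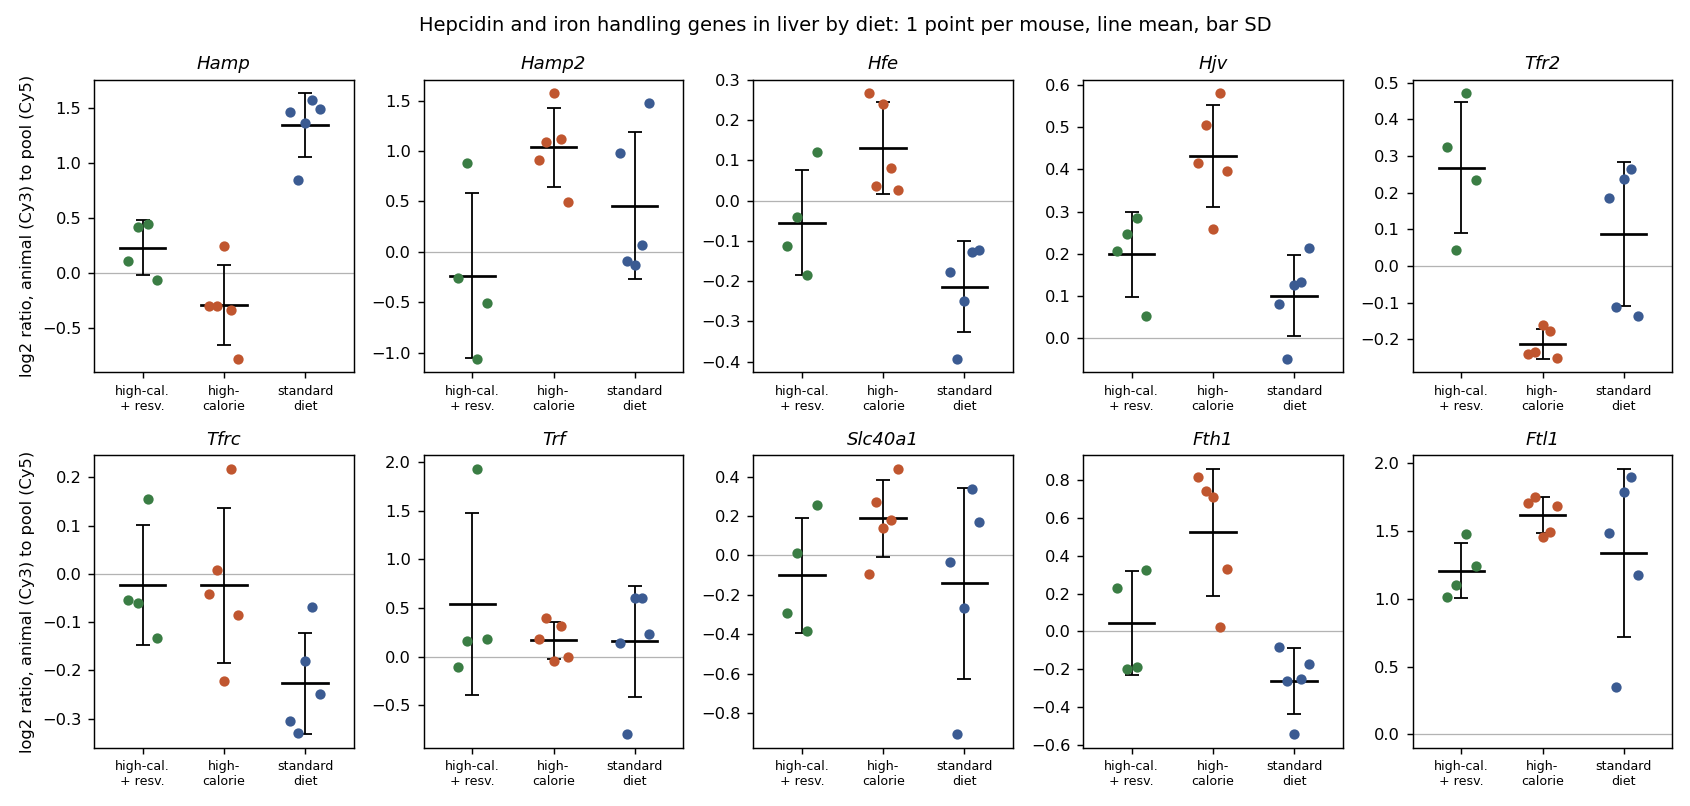
Log2 ratio of animal to pool for the 10 genes, 1 point per mouse, with the group mean (line) and SD (bar), for the resveratrol mice (high-cal. + resv., n = 4), the high-calorie mice (n = 5) and the standard-diet mice (n = 5). Vertical scales differ between panels. For Hamp, the 5 standard-diet mice lie between 0.85 and 1.57, above the other 9 mice, and for Tfr2 the 5 high-calorie mice lie below the others.

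Hamp was low in both high-calorie groups. Its log2 ratio to the pool was 0.10, 0.42, 0.45 and -0.067 in the resveratrol mice, -0.30, -0.30, 0.24, -0.34 and -0.78 in the high-calorie mice, and 1.46, 0.85, 1.36, 1.57 and 1.49 in the standard-diet mice. Each standard-diet mouse had more Hamp RNA than each of the 9 mice on either high-calorie diet, and high-calorie mouse 3 was the one mouse of its group inside the range of the resveratrol group. The group means were 0.22 ± 0.25 with resveratrol (SD, n = 4), -0.30 ± 0.36 on the high-calorie diet (SD, n = 5) and 1.34 ± 0.29 on the standard diet (SD, n = 5).

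The level in high-calorie mice was 3.12-fold lower than in standard-diet mice, a log2 difference of -1.64 ± 0.17 (SE). With resveratrol it was 2.17-fold lower than in standard-diet mice (-1.12 ± 0.18, a call lost without standard-diet mouse 1, 3 or 4 or resveratrol mouse 1 or 4, with values of -1.24 to -1.02 over all omissions of 1 array). With slide series as a block it was -1.03 and did not pass, where all standard-diet arrays were in one series and 3 of 4 resveratrol arrays in the other. It was 1.44-fold higher than in high-calorie mice (0.52 ± 0.18). The groups overlapped in that last comparison and not in the others. In order of level the high-calorie group came lowest, then the resveratrol group, then the standard-diet group. The difference between the high-calorie and resveratrol groups did not pass in the fit over all genes, and without high-calorie mouse 3 it was 0.66 and passed.

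The difference between high-calorie and standard-diet mice was -1.78 among arrays processed by the scanner software on one day, -1.45 among those of the other day and -1.62 within the slide-number series that held both groups. That between resveratrol and high-calorie mice was 0.54 within the first day, 0.48 within one slide series and 0.70 within the other, where the resveratrol group had 1 array. That between resveratrol and standard-diet mice was -1.24 within the first day and -0.93 within the slide series with 1 resveratrol array. In the animal channel alone, scaled to the array's 75th percentile, Hamp averaged 3.41 ± 0.50 with resveratrol, 3.04 ± 0.36 on the high-calorie diet and 5.03 ± 0.36 on the standard diet (log2, SD). The pool channel, which held the same pool on every array, averaged 3.20 ± 0.27, 3.40 ± 0.20 and 3.70 ± 0.14 beside those groups in the same order, and its part in the differences was not tested.

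Hamp2 did not follow Hamp across the diets. It read -0.26, 0.88, -1.06 and -0.50 in the resveratrol mice, 0.91, 1.08, 1.57, 1.12 and 0.49 in the high-calorie mice, and 0.98, -0.094, -0.13, 0.063 and 1.47 in the standard-diet mice. The high-calorie group was the highest of the 3 and the least scattered. Standard-diet mice 1 and 5 sat with it while the other 3 sat near the pool, and resveratrol mouse 2 stood above the other resveratrol mice.

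High-calorie mice averaged 1.04 ± 0.39 for Hamp2 against 0.46 ± 0.73 in standard-diet mice (SD, n = 5 each), a difference of 0.58 ± 0.37 (SE). Resveratrol mice averaged -0.23 ± 0.82 (SD, n = 4), which was 2.41-fold lower than in high-calorie mice (-1.27 ± 0.39). Against standard-diet mice the difference was -0.69 ± 0.39. The groups overlapped in all 3 comparisons. The first difference was 0.83 without standard-diet mouse 5. The second was -1.64 without resveratrol mouse 2, where it passed, and -0.99 without resveratrol mouse 3, and with the lone resveratrol array of its slide series, mouse 2, it was -0.17. The third was -0.16 without standard-diet mouse 5 and resveratrol mouse 3, and turned to 0.42 with that lone array.

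Tfr2 encodes the hepatocyte's transferrin receptor 2, which senses iron-loaded transferrin upstream of hepcidin. Its ratio was 0.32, 0.043, 0.47 and 0.23 in resveratrol mice, -0.24, -0.23, -0.16, -0.18 and -0.25 in high-calorie mice, and 0.19, -0.11, 0.24, 0.26 and -0.14 in standard-diet mice. The 5 high-calorie mice lay within 0.089 of each other and below the other 9 mice. Standard-diet mice 2 and 5, whose arrays were processed on the second day, were the low ones of their group. The difference between high-calorie and standard-diet mice was -0.30 ± 0.09 (SE), and it passed in 4 of 14 fits that each left out 1 array. It did not pass with processing day (-0.26) or slide series (-0.35) as a block. With resveratrol the level was 1.40-fold that in high-calorie mice (0.48 ± 0.09), which passed in 13 of those 14, not without resveratrol mouse 1. With processing day as a block it was 0.37 and did not pass, where the 4 resveratrol arrays were of day 1 and 3 of 5 high-calorie arrays of day 2. The first of these was 0.037 when arrays were centred on their median in place of loess, and it was -0.44 within the first processing day and -0.091 within the second. The second was 0.30 with median centring and 0.48 within the first day.

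Hfe encodes the MHC-like protein mutated in hereditary hemochromatosis, which pairs with transferrin receptors. It read -0.11, -0.041, -0.19 and 0.12 in resveratrol mice, 0.27, 0.035, 0.24, 0.082 and 0.027 in high-calorie mice, and -0.18, -0.39, -0.25, -0.13 and -0.12 in standard-diet mice. Every high-calorie mouse was above every standard-diet mouse, with a difference of 0.34 ± 0.07 (SE), and the resveratrol mice overlapped both groups. The difference from high-calorie mice with resveratrol was -0.19 ± 0.08.

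Hjv encodes hemojuvelin, the BMP coreceptor without which hepcidin is barely made. Its ratio was 0.21, 0.25, 0.29 and 0.054 in resveratrol mice, 0.41, 0.51, 0.26, 0.58 and 0.40 in high-calorie mice, and 0.081, -0.048, 0.13, 0.13 and 0.21 in standard-diet mice. High-calorie and standard-diet mice did not overlap, and resveratrol mice lay between, overlapping both. The differences were 0.33 ± 0.07 for the high-calorie over the standard diet and -0.23 ± 0.07 for resveratrol over the high-calorie diet (SE). Without background correction, the first of these was 0.11 for Hjv and 0.18 for Hfe. The Hjv probe had a median net Cy3 signal of 85.2 intensity units in resveratrol mice, 105.9 in high-calorie mice and 59.9 in standard-diet mice, beside an offset of 50 that the background correction adds.

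Tfrc encodes transferrin receptor 1, through which cells take up transferrin iron. It averaged -0.023 ± 0.12 in resveratrol mice (SD, n = 4), -0.024 ± 0.16 in high-calorie mice and -0.23 ± 0.11 in standard-diet mice (SD, n = 5 each). The groups overlapped, and the differences were 0.20 ± 0.08 for the high-calorie over the standard diet, 0.00073 ± 0.083 for resveratrol over the high-calorie diet and 0.20 ± 0.08 for resveratrol over the standard diet (SE). The first was 0.72 in the animal channel alone and -0.011 with median centring. The probe's median net signal was 56.6 intensity units in resveratrol mice, 61.3 in high-calorie mice and 41.6 in standard-diet mice, again near that offset.

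Trf encodes transferrin, the plasma iron carrier that hepatocytes secrete. It read -0.11, 0.16, 1.93 and 0.18 in resveratrol mice, 0.18, 0.39, -0.041, 0.31 and -0.00047 in high-calorie mice, and 0.14, -0.80, 0.60, 0.60 and 0.23 in standard-diet mice. Resveratrol mouse 3 was far above the other 13 mice, and standard-diet mouse 2 below them. The groups overlapped. The difference between resveratrol and high-calorie mice was 0.37 ± 0.36 (SE), and -0.090 without resveratrol mouse 3, while the high-calorie over standard-diet difference was 0.013 ± 0.34, and -0.23 without standard-diet mouse 2.

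Slc40a1 encodes ferroportin, the exporter that hepcidin removes from the membrane. Its RNA averaged -0.10 ± 0.29 in resveratrol mice (SD, n = 4), 0.19 ± 0.19 in high-calorie mice and -0.14 ± 0.49 in standard-diet mice (SD, n = 5 each). The groups overlapped, and standard-diet mouse 2 at -0.91 widened the last of them. The difference between high-calorie and standard-diet mice was 0.33 ± 0.20 (SE), or 0.14 without that mouse, and between resveratrol and high-calorie mice -0.29 ± 0.21. In liver this gene is expressed in Kupffer cells as well as in hepatocytes, and in bulk RNA a change in the number of cells of a type and a change in RNA per cell cannot be told apart.

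Fth1 encodes the ferritin heavy chain, which oxidises iron for storage. It read 0.23, -0.20, -0.19 and 0.33 in resveratrol mice, 0.82, 0.74, 0.71, 0.024 and 0.33 in high-calorie mice, and -0.08, -0.26, -0.55, -0.25 and -0.17 in standard-diet mice. All 5 high-calorie mice were above all 5 standard-diet mice. Mice 4 and 5 of the high-calorie group were lower than the other 3 and within or at the edge of the resveratrol range. The level in high-calorie mice was 1.73-fold that in standard-diet mice (0.79 ± 0.15, SE), and the difference between resveratrol and high-calorie mice was -0.48 ± 0.16.

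The pool's spot for Fth1 was saturated on 13 of 14 arrays, so a ratio to the pool there is only an upper bound. From the animal channel alone, which was not saturated, the difference between high-calorie and standard-diet mice was 0.69, and that between resveratrol and high-calorie mice -0.61. The ratios to the pool, which that saturation affects, gave 1.27 and -0.77 with median centring. Within the processing days the first difference by such ratios was 0.71 and 0.81.

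Ftl1 encodes the ferritin light chain, which helps form the iron core. Its brighter probe read 1.01, 1.10, 1.48 and 1.24 in resveratrol mice, 1.70, 1.75, 1.46, 1.49 and 1.68 in high-calorie mice, and 1.48, 0.35, 1.78, 1.90 and 1.17 in standard-diet mice. Mouse 2 of the standard diet was the low one, and the groups overlapped. The difference was 0.28 ± 0.22 for the high-calorie over the standard diet and -0.41 ± 0.24 for resveratrol over the high-calorie diet (SE). Without standard-diet mouse 2 the first was 0.033. The dimmer probe gave 0.45 ± 0.28 and -0.45 ± 0.30.

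**Figure D2:**
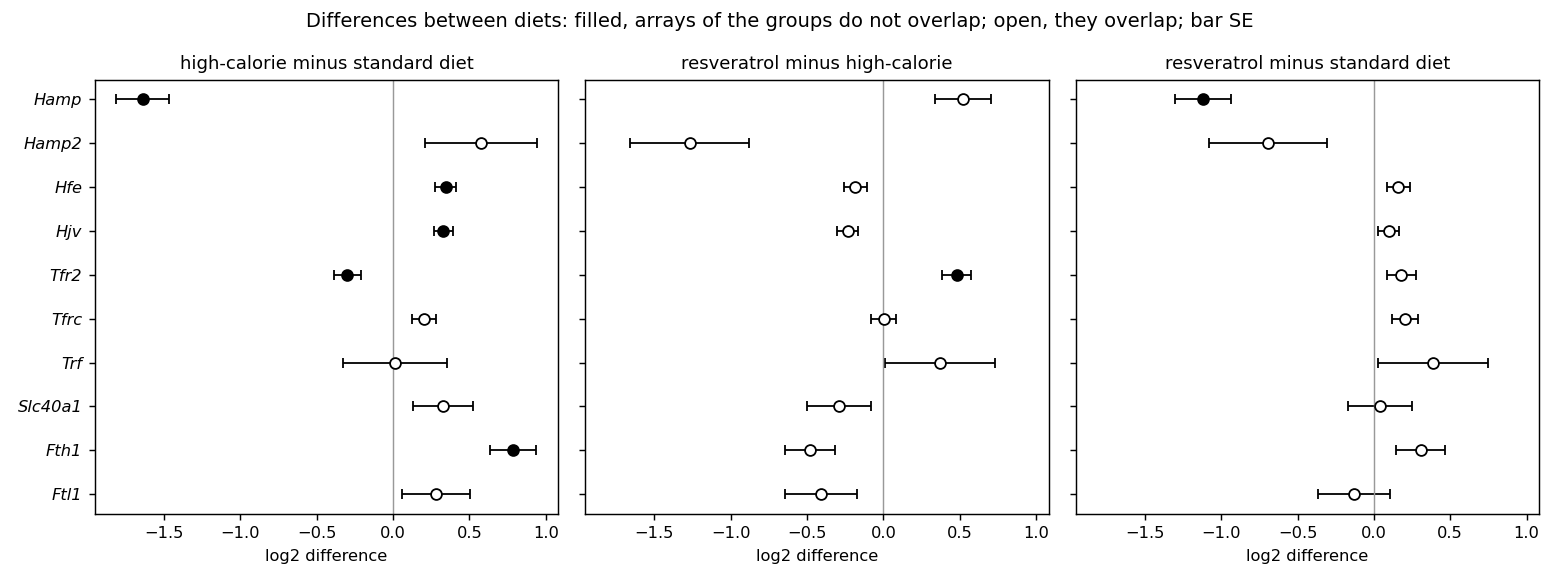
Log2 differences between diets with their SE for each gene, in 3 panels that share a horizontal scale (high-calorie minus standard diet, resveratrol minus high-calorie, resveratrol minus standard diet). Filled points mark genes whose arrays do not overlap between the groups. Hamp lies at -1.64 and -1.12 in the outer panels and at 0.52 in the middle one, where Hamp2 lies at -1.27.

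Set side by side, 5 of 10 members passed the limma fit over all genes at an adjusted p under 0.05 for the high-calorie over the standard diet, 3 higher (Fth1, Hfe and Hjv) and 2 lower (Hamp and Tfr2), and the same 5 had groups that did not overlap. Over all genes 9.44% passed (5.37% higher and 4.07% lower) and 10.3% did not overlap. These members were chosen by their ratios over all 3 diets. Nothing is therefore read from their shares or medians, here or in the other comparisons below. Between resveratrol and high-calorie mice 1 of 10 passed, Tfr2, which was also the one without overlap, beside 5.39% (3.16% higher and 2.22% lower) and 13% of all genes. Between resveratrol and standard-diet mice 1 of 10 passed and 1 of 10 did not overlap, in each case Hamp, beside 0.214% (0.125% higher and 0.0888% lower) and 2.94%. The members' median difference was 0.30, -0.21 and 0.13 in these comparisons, where the median of all genes was -0.0021, -0.0068 and 0.00045. The first and second comparison share the high-calorie arrays, so their values for a member are not independent of each other.

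Among all genes the calls split into 1754 higher and 1329 lower for high-calorie over standard-diet mice, 56.9% higher. This share was 79.0% with median centring and 80.7% in the animal channel alone. For resveratrol over high-calorie mice it was 58.7%, but 25.8% with median centring and 31.1% in the animal channel alone. The scanner's processed signals gave 55.4%, 64.2% and 81.2% in the 3 comparisons. For resveratrol over standard-diet mice, 58.6% of the 70 calls were higher, but 82.4% of 17 with median centring and 88.9% of 9 in the animal channel alone. The median of all genes moved by less than 0.1 under each of these scalings.

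Single mice moved several members together. Standard-diet mouse 2 was the lowest of its group for 7 of 10 members: Hamp, Hfe, Hjv, Tfrc, Trf, Slc40a1 and Ftl1. Resveratrol mouse 3 was the highest of its group for 6 of 10, which were Hamp, Hjv, Tfr2, Tfrc, Trf and Ftl1, and the lowest for Hamp2, Hfe and Slc40a1. Standard-diet mouse 4 was the highest of its group for 6 of 10. Without standard-diet mouse 2 the Hamp difference between high-calorie and standard-diet mice was -1.76.

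The BMP-SMAD pathway carries the iron signal to hepcidin, from the ligand BMP6 through SMAD proteins to targets that include Id1, Smad6 and Smad7. Of its 25 genes tested, 1 rose and 0 fell in high-calorie over standard-diet mice, and 10 had an unadjusted p under 0.05, as 27.6% of all genes did. Of all genes, 22.2% had one for resveratrol over the high-calorie diet and 10.6% for resveratrol over the standard diet, the shares beside which the lists' counts of unadjusted p stand. The gene that rose was Smad6, an inhibitory SMAD, at 0.29, 0.21, 0.24, 0.34 and 0.26 in high-calorie mice against 0.12, 0.044, 0.0082, -0.044 and 0.17 in standard-diet mice. Its difference was 0.21 ± 0.04 (SE, limma adjusted p = 0.0123), or 0.010 with median centring. It was lower with resveratrol than on the high-calorie diet alone (-0.21 ± 0.05, limma adjusted p = 0.0226) and was the 1 gene of the list that fell there, with a limma adjusted p of 0.0520, 0.0543 and 0.0762 without high-calorie mouse 1, high-calorie mouse 5 and resveratrol mouse 1, and 0.0755 with processing day as a block. With median centring that difference was -0.021. With resveratrol against the standard diet 0 of 25 passed limma, where 7 had an unadjusted p under 0.05. The list's median difference was -0.01, -0.05 and -0.05 in these comparisons.

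Id1, a direct SMAD target, read 0.32, 1.47, -0.20 and 0.58 in resveratrol mice, 0.89, 0.78, 1.28, 0.50 and 0.85 in high-calorie mice, and 2.05, 0.052, 2.29, 2.71 and 1.73 in standard-diet mice. Standard-diet mouse 2 was below every high-calorie mouse, while the other 4 were above them. The difference between high-calorie and standard-diet mice was -0.91 ± 0.41 (SE, limma adjusted p = 0.170), and -1.34 without standard-diet mouse 2 (limma adjusted p = 0.0126). Between resveratrol and standard-diet mice it was -1.22 ± 0.44 (adjusted p = 0.342), and -1.65 without that mouse (adjusted p = 0.0244). Smad7, an inhibitory SMAD and direct target, gave -0.36 ± 0.17 (adjusted p = 0.182) and -0.39 ± 0.18 (adjusted p = 0.462) in the same comparisons, and -0.55 (adjusted p = 0.00675) and -0.58 (adjusted p = 0.0301) without standard-diet mouse 2. Leaving out any other mouse made neither gene pass. With array weights the high-calorie over standard-diet difference passed, at -1.20 for Id1 (limma adjusted p = 0.0165) and -0.54 for Smad7 (limma adjusted p = 0.0106). Over the alternatives that difference ran from -1.66 to 0.080 for Id1 and from -0.55 to -0.059 for Smad7.

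Bmp6, the main iron-induced ligand, differed by 0.099 ± 0.040 between high-calorie and standard-diet mice (limma adjusted p = 0.126) and by 0.25 with median centring, where it passed (adjusted p = 0.0479). It passed with array weights as well, at 0.13 (adjusted p = 0.0194). It differed by -0.12 ± 0.04 between resveratrol and high-calorie mice (adjusted p = 0.121), or 0.0495 without high-calorie mouse 4 and 0.0430 with array weights. Its levels spanned -0.14 to 0.060 over the 14 mice. Tmprss6, the protease that cleaves hemojuvelin, differed by -0.16 ± 0.06 (adjusted p = 0.105) and -0.018 ± 0.064 (adjusted p = 0.906) there. With array weights its first difference was -0.20 and passed (limma adjusted p = 0.0231). Fgl1, a secreted protein described as a BMP antagonist, had the smallest p of the list between resveratrol and standard-diet mice, at 1.73 ± 0.49 (adjusted p = 0.186).

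**Figure D3:**
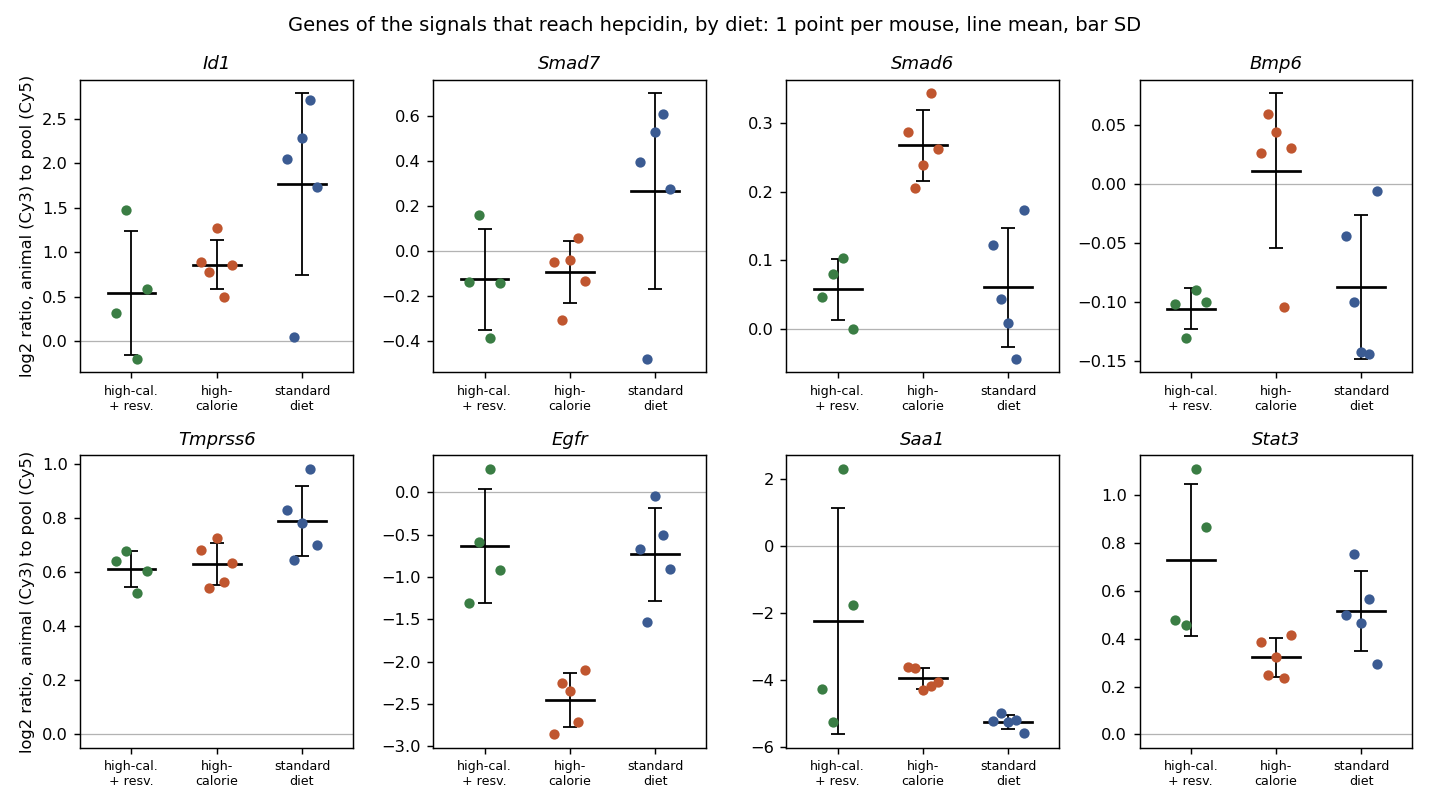
Log2 ratio of animal to pool for 8 genes of the signals that reach hepcidin, 1 point per mouse with group mean (line) and SD (bar), for resveratrol (high-cal. + resv., n = 4), high-calorie (n = 5) and standard-diet mice (n = 5). Vertical scales differ. Standard-diet mouse 2 is the low point of its group for Id1 and Smad7, at 0.052 and -0.48. Resveratrol mouse 3 is the high point of Saa1, at 2.31.

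The IL-6-STAT3 list holds the inflammatory route to hepcidin and its acute-phase outputs. Of 25 genes, 0 rose and 2 fell in high-calorie over standard-diet mice. Egfr, the epidermal growth factor receptor, fell most, at -2.86, -2.26, -2.34, -2.72 and -2.09 in high-calorie mice against -0.67, -1.54, -0.045, -0.50 and -0.90 in standard-diet mice. Its differences were -1.72 ± 0.29 there (SE, limma adjusted p = 0.00293) and 1.82 ± 0.31 for resveratrol over the high-calorie diet (limma adjusted p = 0.00822), where it was the 1 gene of 25 that rose. Hnf4a, a hepatocyte transcription factor, fell by 0.15 (limma adjusted p = 0.0413), but read 0.0023 with median centring and did not pass without any one of 8 mice (standard-diet mice 1 to 4, high-calorie mice 1, 4 and 5, resveratrol mouse 2; adjusted p of 0.0515 to 0.106), nor with slide series as a block (0.108). Egfr and Hnf4a are not acute-phase genes.

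With resveratrol against the standard diet 0 of 25 passed limma, where 9 had an unadjusted p under 0.05, against 10.6% of all genes. Saa1, the acute-phase serum amyloid A, read -4.29, -5.27, 2.31 and -1.78 in resveratrol mice, -3.61, -3.64, -4.30, -4.18 and -4.07 in high-calorie mice, and -5.23, -5.00, -5.28, -5.20 and -5.58 in standard-diet mice. Resveratrol mice 3 and 4 were the high ones, and the high-calorie mice were all above the standard-diet mice. The differences were 1.71 ± 1.05 for resveratrol over the high-calorie diet (limma adjusted p = 0.371) and 1.30 ± 0.99 for the high-calorie over the standard diet (adjusted p = 0.419), and this was 1.25 within slide series 2, where it passed (adjusted p = 0.00655). The pool's spot for Saa1 was saturated on 14 of 14 arrays, so these ratios are upper bounds. On the array of resveratrol mouse 3 the animal's spot was saturated too, so its 2.31 is not a bound in either direction. Differences between such ratios are not bounds either. Cebpb, an acute-phase transcription factor, differed by 0.90 ± 0.27 between resveratrol and standard-diet mice (adjusted p = 0.223). The list's median was 0.39 for resveratrol over the high-calorie diet and 0.00042 for the high-calorie over the standard diet. It includes Saa2 and Fgb, whose pool spots were saturated on 14 of 14 arrays and animal spots on that of resveratrol mouse 3, and Fgg, with the pool spot saturated on 13. The mouse with the highest Saa1, resveratrol mouse 3, also had the highest Hamp and Trf of its group, by a narrow margin for Hamp (0.45 against 0.42).

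In iron and heme transport 25 of 27 listed genes were tested, and 3 rose and 0 fell in high-calorie over standard-diet mice. Flvcr2, a transporter first described as a heme importer, rose by 0.60 ± 0.10 (SE, limma adjusted p = 0.00374), and read 0.33, 0.13, 0.27, 0.43 and 0.54 in high-calorie mice against -0.082, -0.29, -0.43, -0.22 and -0.26 in standard-diet mice. Slc48a1, the lysosomal heme transporter HRG1, rose by 0.34 ± 0.08 (limma adjusted p = 0.0256, and 0.0518 to 0.0716 without high-calorie mouse 3, 4 or 5, 0.0620 with slide series as a block). Slc25a37, the mitochondrial iron importer mitoferrin 1, rose by 0.16 ± 0.05 (adjusted p = 0.0495, and 0.0577 to 0.130 without standard-diet mouse 1, 3 or 4, high-calorie mouse 1, 2, 4 or 5 or resveratrol mouse 2 or 4, 0.0741 with processing day and 0.0867 with slide series as a block) and fell by 0.25 with resveratrol over the high-calorie diet (limma adjusted p = 0.0160, and 0.0725 with processing day as a block), the 1 of 25 that passed there. Hmox1, the heme oxygenase that releases iron from heme, gave 0.32 ± 0.14 for the high-calorie over the standard diet (limma adjusted p = 0.160). That adjusted p was 0.0351 without resveratrol mouse 4, which enters that fit through the shared variance. Within slide series 2 the same Hmox1 difference was 0.36. For resveratrol over the high-calorie diet Hmox1 gave 0.043 ± 0.148 (limma adjusted p = 0.902). Against the standard diet, resveratrol mice had 0 of 25 past limma's threshold, with 4 at an unadjusted p under 0.05. The smallest p there were those of Pcbp2, an iron chaperone (-0.31 ± 0.07, adjusted p = 0.110), and Slc25a28, mitoferrin 2 (-0.13 ± 0.05, adjusted p = 0.386).

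Iron and oxygen sensing had 12 of 13 listed genes tested. Aco1, which encodes iron regulatory protein 1, rose in high-calorie over standard-diet mice by 0.25 ± 0.07 (SE, limma adjusted p = 0.0320), at 0.47 to 0.55 in high-calorie mice against -0.017 to 0.35 in standard-diet mice. Its adjusted p was 0.0586 to 0.0673 without standard-diet mouse 3 or any one of the 5 high-calorie mice. Arnt, the partner of hypoxia-inducible factors, fell by 0.20 there (limma adjusted p = 0.0314) and rose by 0.27 ± 0.06 with resveratrol over the high-calorie diet (limma adjusted p = 0.0165). When the probes of a gene were averaged, its differences were -0.0085 and 0.0099. The first call was lost without standard-diet mouse 2, 3 or 4 or any one of the high-calorie mice (limma adjusted p of 0.0540 to 0.0721) and the second without resveratrol mouse 1 (0.0682). With resveratrol against the standard diet 0 of 12 passed limma and 0 had an unadjusted p under 0.05. The smallest p there belonged to Hif1an, which hydroxylates hypoxia-inducible factors (-0.062 ± 0.042, adjusted p = 0.644), and Epo, the gene of erythropoietin (-0.065 ± 0.049, adjusted p = 0.671).

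In heme and iron-sulfur synthesis, 21 of 22 listed genes were tested, and 5 rose and 1 fell in high-calorie over standard-diet mice. Bola3, a mitochondrial iron-sulfur cluster factor, rose by 0.60 ± 0.08 (SE, limma adjusted p = 0.000785), with 0.26, 0.24, 0.24, 0.13 and 0.20 in high-calorie mice against -0.37, -0.55, -0.38, -0.47 and -0.14 in standard-diet mice. Iscu, the scaffold on which clusters form, rose by 0.55 ± 0.09 (adjusted p = 0.00273), and read 0.25, 0.13, 0.14, 0.11 and 0.10 in high-calorie mice against -0.44, -0.65, -0.23, -0.24 and -0.45 in standard-diet mice. Nfs1, the cysteine desulfurase that supplies sulfur, rose by 0.43 ± 0.08 (adjusted p = 0.00741), and Cpox, a late enzyme of heme synthesis, by 0.38 ± 0.08 (adjusted p = 0.0141). The other 2 genes that passed, named after their values were seen, were Glrx5, which hands clusters on (0.55 ± 0.16, limma adjusted p = 0.0478), and Urod, a heme synthesis enzyme that fell by 0.30 (adjusted p = 0.0301). Nfs1 was 0.16 when its probes were averaged.

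With resveratrol over the high-calorie diet 2 of the 21 genes fell and 0 rose. They were Iscu, which fell by 0.55 (limma adjusted p = 0.00940), and Bola3, which fell by 0.40 (adjusted p = 0.0211, and 0.0508 to 0.0780 without high-calorie mouse 2 or 5 or resveratrol mouse 1 or 3, 0.0858 with processing day and 0.0582 with slide series as a block). Iscu read -0.58, -0.29, -0.58 and -0.15 in the resveratrol mice, below each of the 5 high-calorie mice. Against the standard diet 0 of 21 passed limma, with 4 at an unadjusted p under 0.05. Cpox came closest, at 0.46 ± 0.09 (adjusted p = 0.0571, and 0.0340 without standard-diet mouse 5 and 0.0122 without resveratrol mouse 3), followed by Urod at -0.21 ± 0.08 (adjusted p = 0.395).

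**Figure D4:**
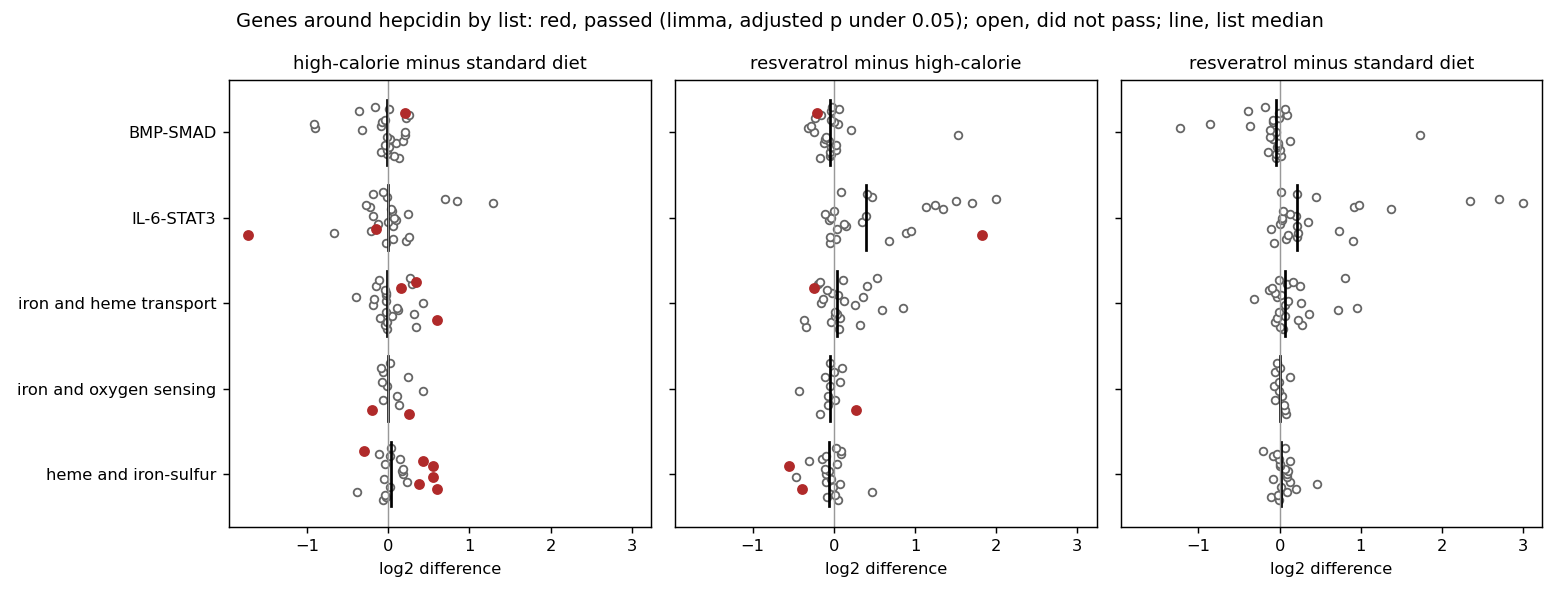
Log2 differences of the tested genes of 5 lists around hepcidin, 1 point per gene, in the 3 comparisons. Filled red points passed limma at an adjusted p under 0.05, and the vertical line is the list's median. The heme and iron-sulfur list has 6 red points in the first panel, and the last panel has 0.

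Markers of liver cell types were measured beside these genes. The summed Cy3 signal of 13 Kupffer cell and macrophage markers, scaled to each array's 75th percentile, ran from 18.1 to 47.7 in resveratrol mice, 24.0 to 31.9 in high-calorie mice and 17.7 to 22.5 in standard-diet mice. The high-calorie and standard-diet ranges did not overlap, although 0 of 13 passed limma between them and 7 had an unadjusted p under 0.05. The sum over 6 hepatocyte markers was 1039 to 1517 in resveratrol mice, 798 to 1332 in high-calorie mice and 1189 to 1677 in standard-diet mice, with medians of 1287, 983 and 1604 in that order. For the high-calorie over the standard diet 2 of 6 fell, Ahsg and Apoa1, 5 of 6 were lower, 5 of 6 had an unadjusted p under 0.05 and the median difference was -0.64. For resveratrol over the high-calorie diet 1 of 6 rose, 5 of 6 were higher and the median difference was 0.49. Hepatocytes are the cells that make Hamp. The median differences of their markers had the same signs as those of Hamp in these comparisons, and their part in the Hamp differences was not tested. Albumin was saturated in Cy3 on 11 arrays, Ahsg on 2 and Fgb on 1, that of resveratrol mouse 3, which limits the sum. The pool's spots of albumin, Ahsg and Fgb were saturated on 14, so their ratios, which enter the median differences, are upper bounds. Where the animal's spot was saturated as well, a ratio is not a bound.

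The 5 adipocyte markers summed to 5.42 to 18.8 in resveratrol mice, 6.65 to 11.5 in high-calorie mice and 2.63 to 3.79 in standard-diet mice. For 6 erythroid and blood markers, the sum was 5.17 to 8.08, 7.37 to 21.7 and 6.02 to 16.0 in those groups in that order. The sum over 8 stellate cell markers was 13.7 to 16.4, 14.5 to 18.2 and 14.6 to 17.4 in the same order, and these ranges overlapped. Of 7 stellate cell markers tested, 4 rose and 1 fell in high-calorie over standard-diet mice, and 0 rose and 3 fell for resveratrol over the high-calorie diet. Of the 5 adipocyte markers 2 rose in high-calorie over standard-diet mice, and 0 passed for resveratrol over the high-calorie diet. Over all genes 5.37% rose and 4.07% fell in high-calorie over standard-diet mice. For resveratrol over the high-calorie diet 3.16% rose and 2.22% fell. No marker on the array was below background on every array, and the part of any cell type in the differences above was not tested.

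The genes whose level followed Hamp most closely over the 14 arrays, by Pearson's r with no p, were Cdh1 (E-cadherin, 0.930), Slit1 (an axon guidance ligand, 0.924), the ribosomal protein genes Rpl35 (0.923) and Rpl36a (0.922), from families with many near-identical copies, and Slc37a4 (the glucose-6-phosphate transporter, 0.913). The arrays share the pool and the diets, and these genes, like Hamp, were lower in high-calorie than in standard-diet mice, with log2 differences of -1.62 for Cdh1 and -0.20 for Slit1 at the ends of their range. With group means subtracted, the closest were Chrnb2 (0.855), Scarb1 (0.822), Olfr1242 (0.821), Lsg1 (0.811) and Cldn5 (0.803), so neither set shared a gene with the other. Among members, Hamp's correlation over the 14 arrays was -0.71 with Fth1, -0.67 with Hjv, -0.65 with Hfe and 0.44 with Tfr2. It was -0.53 with Tfrc, -0.26 with Slc40a1, 0.099 with Trf and -0.087 with Ftl1. With group means subtracted it was 0.044 with Fth1, 0.23 with Hjv, 0.41 with Hfe and 0.33 with Tfr2. It was then 0.13 with Tfrc, 0.23 with Slc40a1, 0.47 with Trf and 0.41 with Ftl1. Between Hamp and Hamp2 it was -0.059 over the arrays and 0.47 with group means subtracted, there the highest of the members together with Trf.

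**Figure D5:**
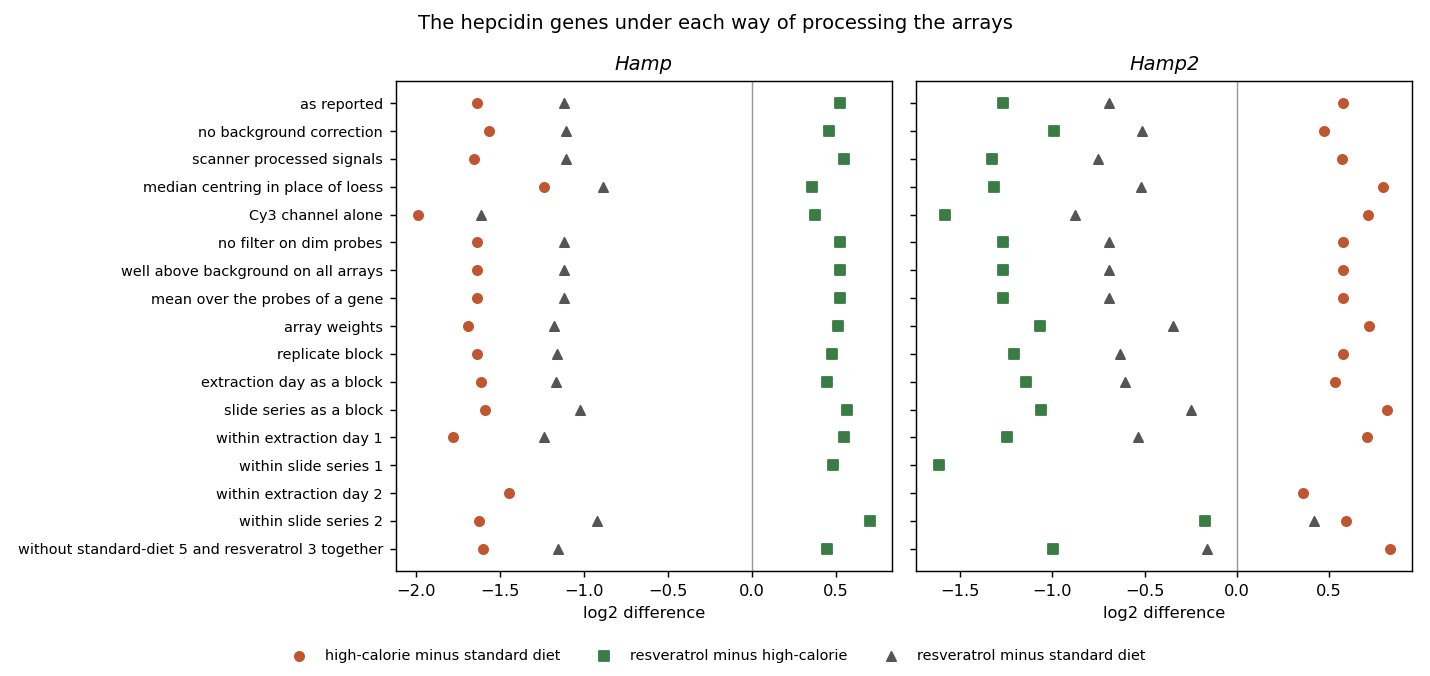
Log2 difference of Hamp (left) and Hamp2 (right) in the 3 comparisons under each way of processing the arrays listed down the side. Hamp stays below 0 for the high-calorie and resveratrol diets over the standard diet and above 0 for resveratrol over the high-calorie diet. Hamp2 for resveratrol over the standard diet lies at 0.42 within the slide series that has 1 resveratrol array and below 0 in the other rows. Extraction day is the day the scanner software processed an array, and deposited scores are left out, as their scale is not a log2 ratio.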

How the data were processed

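Liver RNA of 14 mice was hybridised to 2-colour arrays with no dye swap. The scanner files, deposited by the authors, give spot and local background intensity in both channels, read by Agilent Feature Extraction 7.5.1 per the file headers. The authors also deposited a score per probe, standardised to mean 0 within each array, which followed the log of the animal's processed signal (correlation 0.983 to 0.985); column medians were -0.0497 to 0.00234, higher means more RNA in the animal, and its log base and making are not given in the sources used here.

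Signals were corrected by normexp with an offset of 50, and each array's log2 ratios (animal over pool) then went through a loess fit. Control spots (2256 of 43790) had weight 0, and 576 outlier spots were left out. Probes were matched to RefSeq GRCm38.p6 by systematic name, accession or gene name (20859 of 41174 probes), and unmatched probes kept the name in the file. The brightest probe stood for a gene, and genes well above background on at least 4 arrays were kept (32675 of 36093). limma 3.58.1 in R 4.3.3 fitted the 3 groups together, with Benjamini-Hochberg adjustment over all genes, and a gene passed, rose or fell at an adjusted p under 0.05. The labels do not name cultures or cages, so p-values measure the spread between these mice.

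The members and lists were chosen with earlier results of these data known. All members, up to 4 passing genes per list and comparison (or the 2 with the smallest p where 0 passed), the genes Hmox1, Bmp6, Id1, Smad7, Tmprss6 and Saa1, and the 5 genes most correlated with Hamp in each of 2 ways were named. The model was tested on simulated data. Alternatives covered background correction, scaling, channel, filter, probe choice, array weights, batches and omitted arrays. The processing day is when the scanner software read the image, not a day of RNA work, and slide series were made by dividing the slide numbers at their largest gap.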

Additional observations from a re-analysis of the deposited data

Results flagged for a closer look

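Among 48 combinations of gene and group checked, 2 had a mouse far from the rest of its group, where chance gives about 1 in 20. For Trf, the transferrin gene, resveratrol mouse 3 was at 1.93, while the next mouse of its group was at 0.18 and the lowest at -0.11. For Bmp6, the BMP ligand gene, high-calorie mouse 4 was at -0.10, while the next was at 0.027 and the highest at 0.060.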

How the results depend on the processing

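The members were chosen on these same arrays, so a pass below describes a fit and is not evidence for a member. Between high-calorie and standard-diet mice, the Hamp difference kept its sign in 30 of 30 alternatives and passed in 29, the exception being processing day 2. Its value was -1.24 with median centring, -1.99 with the Cy3 channel alone, -0.928 in the deposited scores (a scale that is not log2) and -1.77 to -1.52 without 1 array. Resveratrol over high-calorie mice gave 0.193 in the scores and 0.40 to 0.66 without 1 array, and passed in 1 of 30. Resveratrol over standard-diet mice gave -1.62 in the Cy3 channel, -0.735 in the scores and -1.24 to -1.02 without 1 array, and passed in 18 of 29. For the high-calorie over the standard diet, Fth1 passed in 26 of 30, Hfe and Hjv in 25 of 30 each and Tfr2 in 10 of 30. Among differences that passed, reversals were Tfr2 in that comparison (0.037 with median centring) and Hnf4a (0.0023 with median centring, 0.12 in the Cy3 channel, 0.050 in the scores). Members' differences that had not passed changed sign more often: Trf kept its sign in 22, 28 and 26 alternatives (of 30, 30 and 29) for high-calorie over standard, resveratrol over high-calorie and resveratrol over standard diet, Tfrc in 29, 17 and 29, Slc40a1 in 30, 30 and 24, Ftl1 in 29, 30 and 25, Hamp2 in 30, 30 and 28, and Tfr2 in 28 of 29 for the last. The cause was not tested.

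Counts over all genes moved most. For high-calorie over standard-diet mice, 3083 genes passed, against 430 in the Cy3 channel, 416 in the scores, 6963 with array weights, 1874 with slide series as a block, 819 within day 1, 55 within day 2, 837 within slide series 2 and 1379 to 5993 without 1 array. For resveratrol over high-calorie mice it was 1760, against 2695 without background correction, 698 with processed signals, 120 with median centring, 45 in the Cy3 channel, 48 in the scores, 3062 with array weights, 445 with day and 672 with slide series as a block, 52 within day 1, 44 within slide series 2 and 352 to 2571 without 1 array. Within slide series 1, limma passed 0, with 3987 genes at an unadjusted p under 0.05. For resveratrol over standard-diet mice it was 70, against 32 without background correction and 32 with processed signals, 17 with median centring, 9 in the Cy3 channel, 4 in the scores, 161 with array weights, 10 with slide series as a block and 23 to 214 without 1 array. Leaving out standard-diet mouse 5 and resveratrol mouse 3 together, chosen after seeing the data, gave 6672 for high-calorie and 514 for resveratrol over standard-diet mice.

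Equal replicate numbers did not pair the mice: 4 of 13 same-number correlations were over 0.1 (-0.185 to 0.300). The replicate block gave 2882, 409 and 48 genes and Hamp differences of -1.64, 0.48 and -1.16 in the same 3 comparisons. Under it Hamp did not pass for resveratrol over standard-diet mice, nor did Smad6 and Bola3 for resveratrol over high-calorie mice (adjusted p = 0.0888 and 0.0843), Arnt in either comparison (0.0629 and 0.0714) or Aco1 (0.0641). List genes that passed for the high-calorie over the standard diet numbered 0 to 9 over the alternatives for BMP-SMAD (1 reported), 0 to 8 for iron and heme transport (3), 0 to 6 for IL-6-STAT3 (2), 0 to 3 for iron and oxygen sensing (2) and 0 to 6 for heme and iron-sulfur (6). A slide block was not run because no slide held over 1 array. Where a lone array stood for a group, it was assumed to vary like the others. Depth of an array is its signal over background, which limits Hjv and Tfrc, whose net signals were near the offset.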
